A study of Mus musculus with 6 samples.

Results

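Acnat1, Acnat2, Keg1 and Glyat encode enzymes that transfer an acyl group from coenzyme A to the nitrogen of an amino acid. They were picked by name, as acyl-CoA to taurine or glycine transferases of liver and kidney, and they are 4 of 19176 genes measured in mouse renal cortex. They were also chosen with their values in these libraries known: their normalized read counts in the UIRI and UIRI + BA groups are what selected them. The difference between those groups is therefore described for the members and was not tested.

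In liver and kidney, carboxylic acids are first bound to coenzyme A and then joined to an amino acid, which makes them more soluble in water and ready for secretion. Relatives of the bile acid enzyme Baat, among them Acnat1 and Acnat2, act on acyl-CoA in peroxisomes and prefer taurine. Glyat acts in mitochondria and uses glycine, as in the formation of hippurate from benzoate. The proximal tubule is the part of the nephron that takes up and secretes organic anions, and it holds much of the kidney's peroxisomes and of its enzymes for such conjugation.

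All libraries came from the renal cortex of male wild-type C57BL/6J mice, obtained at 8 weeks of age. In each mouse of both groups the left renal pedicle was clamped and released (unilateral ischemia-reperfusion injury, UIRI), and the right kidney was taken out on day 13. The UIRI group received the vehicle, ethanol in saline, by intraperitoneal injection each day for 14 days. The UIRI + BA group received bruceine A (BA), a plant quassinoid that the library labels spell brucine A, at 1 mg/kg in the same way. Cortex was taken on day 14 from 3 mice per group, and sham-operated mice were not analysed here. The tissue is a mixture of tubular and interstitial cells, so that fewer cells of a type and less RNA per cell cannot be told apart. The values are gene counts divided by 1 size factor per library, called normalized read counts here, and multiplying back gave whole reads for 100% of them.

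The number of reads on genes ran from 16510720 to 20313529 in 5 libraries and was 38124164 in UIRI replicate 3, which was 2.04 times the median of the others. On the first principal component, UIRI replicates 1 and 2 lay at -32.5 and -25.5, whereas UIRI replicate 3 lay at 11.1, among the UIRI + BA libraries at 30.5, 3.11 and 13.4. Both libraries numbered 3 also held the most RNA of urothelium, the lining of the renal pelvis. The summed level of 6 urothelium markers was 126, 119, 524 under vehicle (UIRI replicates 1, 2, 3) against 30.1, 31.2, 320.3 under BA (UIRI + BA, same order). Krt15 was the most abundant of the 6, Upk2 was at 0 in UIRI + BA replicates 1 and 2, and Upk3a was at 0 in UIRI + BA replicate 2. All 6 of these markers had a negative log2 difference (UIRI + BA minus UIRI), 0 of them at an unadjusted p below 0.05. Their part in the results was not tested, and results are also given without these libraries.

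The labelled tissue was checked against markers. All 19 proximal tubule markers looked for were in the table, none was at 0 in any library, and the lowest of them had a mean of 260 normalized reads. Their summed level was 75614, 85203.5, 100076 under vehicle (UIRI replicates 1, 2, 3) against 108613, 117782, 167612 under BA (UIRI + BA, same order). Kap, an androgen-regulated protein of the proximal tubule, was the most abundant and made up 36.2% of this sum. Hepatocyte markers were checked too, because liver is the other main site of these enzymes. All 10 were found, with a summed level between 1601 and 1941 in the 6 libraries and with Apob as the most abundant, and the mean log2 levels of the groups overlapped.

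Among the relatives of Baat, Acnat2 showed the larger difference. Acnat2 and its neighbour Acnat1 are close copies that encode acyl-CoA to amino acid transferases of peroxisomes. In GENCODE release M21 (build GRCm38), Acnat2 spans chr4:49379840-49408151 (minus strand) and has 4 transcripts, the longest chain counting 5 exons. Acnat1 spans chr4:49447105-49473912 (minus strand), and its 4 transcripts have at most 4 exons. The build used for the deposited counts is not given in the sources used here, and the symbol alone ties these positions to the measured genes.

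The normalized read count of Acnat2 was 133, 155, 194 under vehicle (UIRI replicates 1, 2, 3) against 332, 393, 413 under BA (UIRI + BA, same order). The highest UIRI library thus stayed well under the lowest UIRI + BA library, and the groups did not overlap. The group means were 161 ± 31.3 (SD, n = 3) and 379 ± 42.3 (SD, n = 3), a ratio of 2.36, with a log2 difference of 1.25 (standard error 0.16). These values rest on 117 to 396 reads per library. Without UIRI replicate 3 the log2 difference of Acnat2 was 1.39, and without both libraries numbered 3 it was 1.33.

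Acnat1 was the least abundant member. Its normalized read count was 51.0, 69.7, 79.4 under vehicle (UIRI replicates 1, 2, 3) against 125, 86.2, 122 under BA (UIRI + BA, same order). UIRI + BA replicate 2 lay close to UIRI replicate 3, and the groups just failed to overlap. The means were 66.7 ± 14.5 (SD, n = 3) and 111 ± 21.7 (SD, n = 3), a ratio of 1.67, with a log2 difference of 0.73 (standard error 0.22). Acnat1 had 45 to 145 reads per library, so counting error alone came to between 8.30% and 14.9% of a value, against a coefficient of variation of 21.7% in UIRI and 19.5% in UIRI + BA. Its log2 difference was 0.87 without UIRI replicate 3 and 0.79 without both libraries numbered 3.

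The coding sequences of Acnat1 and Acnat2 were 96.2% identical over 1248 aligned bases, and they were 64.8% and 64.4% identical to Baat, respectively. Of all stretches of 100 bases in their annotated transcripts, 11.0% of those of Acnat1 and 14.1% of those of Acnat2 occurred unchanged in the other gene. Reads that lie wholly within shared sequence cannot be assigned to either gene. The paper describes paired reads that are longer than 100 bases. Such reads and pairs can reach past a shared stretch, so these shares may overstate what cannot be assigned.

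The members on chromosome 19 were far more abundant. Keg1, named for its expression in kidney, encodes a relative of Glyat, and Glyat encodes glycine N-acyltransferase, the enzyme that makes hippurate. Glyat spans chr19:12633308-12653911 (plus strand, GENCODE M21, GRCm38), and its 5 transcripts have at most 6 exons. Keg1 follows on the same strand at chr19:12695786-12719902, and its 7 transcripts have at most 6 exons. Their coding sequences were 73.1% identical over 877 aligned bases.

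The normalized read count of Keg1 was 3261, 4015, 3770.0 under vehicle (UIRI replicates 1, 2, 3) against 7782, 5712, 6916 under BA (UIRI + BA, same order). All UIRI + BA libraries lay above all UIRI libraries, and UIRI + BA replicate 1 was the highest. The means were 3682 ± 385 (SD, n = 3) and 6803 ± 1040 (SD, n = 3), a ratio of 1.85, with a log2 difference of 0.88 (standard error 0.12). With at least 2878 reads in each library, counting error was at most 1.86%. The log2 difference of Keg1 was 0.90 without UIRI replicate 3 and 0.88 without both libraries numbered 3.

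An antisense gene, Gm15962, overlaps the 3' part of Keg1, and 4.24% of the stretches of 100 bases of Keg1 occurred in it on the opposite strand. Gm15962 had a mean of 43.3 normalized reads in UIRI and 91.8 in UIRI + BA, with overlapping groups, a log2 difference of 0.93 and an adjusted p of 0.448 from limma. The libraries were made with a strand-specific kit, but whether strand was used in counting is not given in the sources used here. If it was not, reads from Keg1 and Gm15962 in the overlap cannot be told apart.

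The normalized read count of Glyat was 2592, 2861, 3333.5 under vehicle (UIRI replicates 1, 2, 3) against 4213, 3935, 4947 under BA (UIRI + BA, same order). The groups did not overlap, and UIRI replicate 3 was the library of its group nearest to UIRI + BA. The means were 2929 ± 375 (SD, n = 3) and 4365 ± 523 (SD, n = 3), a ratio of 1.49, with a log2 difference of 0.58 (standard error 0.12), the smallest of the members. The log2 difference of Glyat was 0.67 without UIRI replicate 3, 0.48 without UIRI + BA replicate 3 and 0.58 without both libraries. None of the 100-base stretches of Glyat occurred in another gene.

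**Figure D1:**
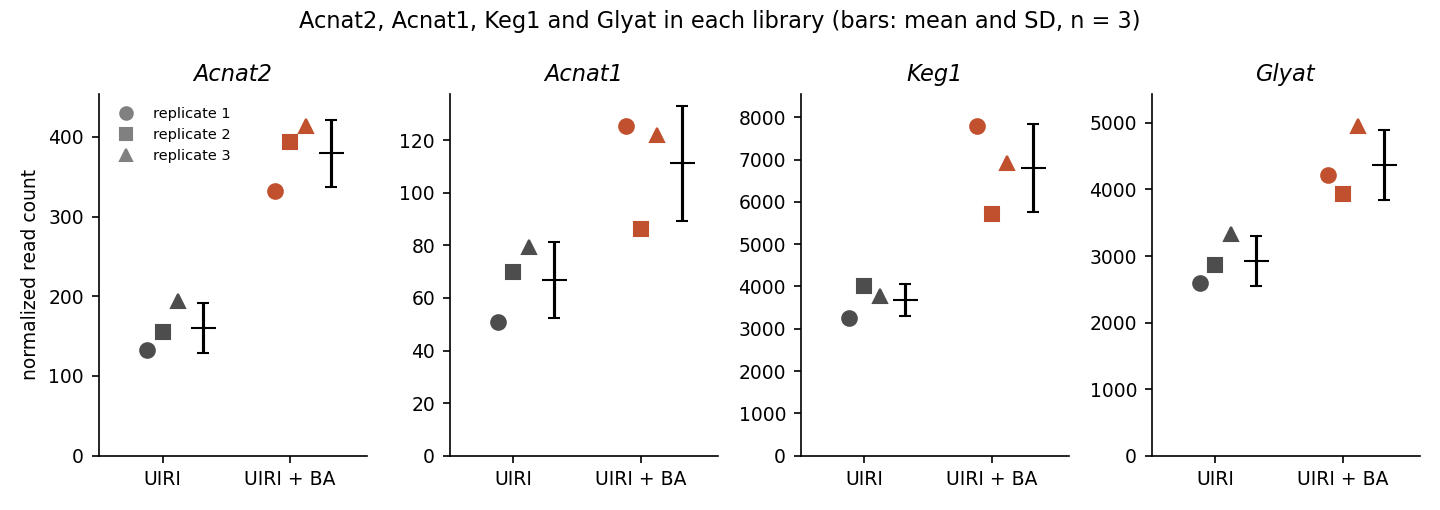
Normalized read count (linear axis from 0, a scale for each gene) of Acnat2, Acnat1, Keg1 and Glyat in the 3 UIRI libraries (grey) and the 3 UIRI + BA libraries (orange), with symbols for the replicate and bars for mean and SD. In Acnat2 the highest UIRI library reads 194 and the lowest UIRI + BA library 332, whereas in Acnat1 the groups come as near as 79.4 and 86.2.

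In the plot of members by library, the groups were apart for 4 of the 4 members, all higher with BA. Over all genes, 7.45% had groups that did not overlap with UIRI + BA higher, 6.96% had such groups with UIRI + BA lower, and 48.9% had a log2 difference above 0. The members were selected on this contrast, so their count says nothing beyond the selection. For the table as a whole, limma called 0 genes at an adjusted p below 0.05 (0% of those tested), and 1971 genes (10.3%) had an unadjusted p below 0.05. They divide into 1087 with a higher level under BA (5.67%) and 884 with a lower level (4.61%). On the recovered reads, DESeq2 called 213 genes at an adjusted p below 0.05, and edgeR called 0, with 1703 at an unadjusted p below 0.05.

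The promoter windows of the members, 250 bases before to 50 after the start, are shown because the members were higher together with Hnf4a and Ppara, whose levels are given with the pathway and whose binding letters were looked for. The windows are those of RefSeq on GRCm38.p6, in which 4 of 4 members were found. They are chr4:49408102-49408401 (minus strand) for Acnat2, chr4:49451060-49451359 (minus strand) for Acnat1, chr19:12695540-12695839 (plus strand) for Keg1 and chr19:12633058-12633357 (plus strand) for Glyat. RefSeq gives Acnat2 another start 2393 bases downstream, and its start of Acnat1 lies 22803 bases downstream of the GENCODE gene start. Capitals would mark the letters looked for, on either strand, and there are none.
Acnat2: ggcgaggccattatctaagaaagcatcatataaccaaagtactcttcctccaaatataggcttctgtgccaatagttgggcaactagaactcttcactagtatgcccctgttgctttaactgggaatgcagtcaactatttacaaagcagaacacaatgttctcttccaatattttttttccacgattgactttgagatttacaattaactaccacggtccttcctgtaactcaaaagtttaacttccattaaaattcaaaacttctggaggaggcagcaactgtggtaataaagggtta
Acnat1: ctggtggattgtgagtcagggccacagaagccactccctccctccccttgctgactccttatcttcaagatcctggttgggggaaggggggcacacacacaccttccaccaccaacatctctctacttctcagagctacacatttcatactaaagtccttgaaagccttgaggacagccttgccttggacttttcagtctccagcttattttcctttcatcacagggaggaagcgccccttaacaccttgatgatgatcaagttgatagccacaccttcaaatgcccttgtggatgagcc
Keg1: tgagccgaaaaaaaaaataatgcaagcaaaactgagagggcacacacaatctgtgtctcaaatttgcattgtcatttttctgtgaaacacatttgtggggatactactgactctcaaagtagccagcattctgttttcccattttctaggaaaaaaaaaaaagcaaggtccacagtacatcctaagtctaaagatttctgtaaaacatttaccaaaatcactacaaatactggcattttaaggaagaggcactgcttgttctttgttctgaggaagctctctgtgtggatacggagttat
Glyat: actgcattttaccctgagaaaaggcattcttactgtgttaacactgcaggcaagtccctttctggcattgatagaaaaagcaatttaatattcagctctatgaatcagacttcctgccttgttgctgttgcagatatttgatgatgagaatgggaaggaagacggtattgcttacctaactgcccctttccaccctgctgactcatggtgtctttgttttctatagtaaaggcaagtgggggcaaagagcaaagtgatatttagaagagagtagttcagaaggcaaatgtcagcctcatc

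The letters AGGTCA, the core read by many nuclear receptors, occur in 16.3% of 32851 RefSeq promoters of the same length, and AGGTCA repeated after 1 free base, a form read by Ppara and Hnf4a, in 0.0396%. CAAAGTCC, another form read by Hnf4a, occurs in 1.42%, and TATAAA in 13.6%. None of these 4 was found on either strand in the 5 windows of the members. A match or its absence describes the letters in these windows only.

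Levels of different genes were compared per kilobase of annotated exon sequence. In the UIRI group, the level per kilobase was 650 ± 68.0 (SD, n = 3) for Keg1, 613 ± 78.5 for Glyat, 92.2 ± 17.9 for Acnat2 and 31.3 ± 6.79 for Acnat1. In the UIRI + BA group it was 1201 ± 184 (SD, n = 3) for Keg1, 913 ± 109 for Glyat, 218 ± 24.3 for Acnat2 and 52.2 ± 10.2 for Acnat1. The order of levels was the same in both groups. Keg1 and Glyat lay within their spread of each other in UIRI, and the steps from Glyat to Acnat2 and from Acnat2 to Acnat1 exceeded the spread. Over all libraries, Keg1 stood at percentile 94.5 and Glyat at percentile 93.0 of the 18789 genes with a length, Acnat2 at 63.8 and Acnat1 at 36.2.

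Ratios between members overlapped between the groups for 4 of the 6 pairs, and no ratio was tested. The level of Acnat2 per kilobase was 3.17, 2.72 and 2.99 times that of Acnat1 under vehicle against 3.23, 5.57 and 4.13 times under BA. These ratios did not overlap between the groups, though UIRI + BA replicate 1 came near UIRI replicate 1, and some of the reads behind them may be split wrongly between the copies. The level of Keg1 per kilobase was 1.06, 1.18 and 0.954 times that of Glyat in UIRI and 1.56, 1.23 and 1.18 times in UIRI + BA, where the ranges met. Relative to Glyat, Acnat2 stood at 0.150 ± 0.00988 (SD, n = 3) under vehicle against 0.240 ± 0.0303 (SD, n = 3) under BA, without overlap. Acnat1 relative to Glyat was 0.0508 ± 0.00578 and 0.0571 ± 0.00893, with overlap. Relative to Keg1, Acnat2 was at 0.142 ± 0.0226 and 0.185 ± 0.0431 and Acnat1 at 0.0480 ± 0.00738 and 0.0433 ± 0.00344, both with overlap.

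The members were then set against the proximal tubule markers of the same library. Of these 19 markers, 17 had a higher mean log2 level with BA and Slc7a8 and Cyp7b1 a lower one, 15 had an unadjusted p below 0.05, all higher, and 0 an adjusted p below 0.05 from limma. The mean log2 level of the list was 10.83 ± 0.29 (SD, n = 3) under vehicle against 11.40 ± 0.14 (SD, n = 3) under BA, a difference of 0.57 (standard error 0.19). UIRI replicate 3, at 11.16, lay nearer to the UIRI + BA libraries than to UIRI replicates 1 and 2, at 10.60 and 10.73. The part of these markers in the difference of the members was not tested, but each member could be measured relative to them.

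Relative to the marker mean, Glyat stood at 0.74, 0.76 and 0.54 on the log2 scale in UIRI replicates 1 to 3 and at 0.68, 0.66 and 0.71 in UIRI + BA replicates 1 to 3. The group means differed by 0.00 (standard error 0.07), so that Glyat and the markers were higher by the same amount within this error. Acnat2 stood at -3.54, -3.44, -3.55 under vehicle against -2.98, -2.66, -2.86 under BA. Here the groups did not overlap, and the difference of Acnat2 relative to the markers was 0.67 (standard error 0.10). Leaving out each library in turn gave values from 0.59 to 0.75 for Acnat2 and from -0.06 to 0.04 for Glyat.

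Keg1 and Acnat1 lay between these. Relative to the markers, Keg1 stood at 1.01 ± 0.27 (SD, n = 3) under vehicle against 1.32 ± 0.21 (SD, n = 3) under BA, a difference of 0.31 (standard error 0.20) with overlapping groups. UIRI replicate 3 was the lowest library at 0.72, and without it the difference of Keg1 relative to the markers was 0.16. Acnat1 stood at -4.90, -4.58, -4.83 under vehicle against -4.38, -4.84, -4.62 under BA, a difference of 0.16 (standard error 0.16) with overlapping groups. Without UIRI + BA replicate 1 it was 0.04, and without UIRI + BA replicate 2 it was 0.27.

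**Figure D2:**
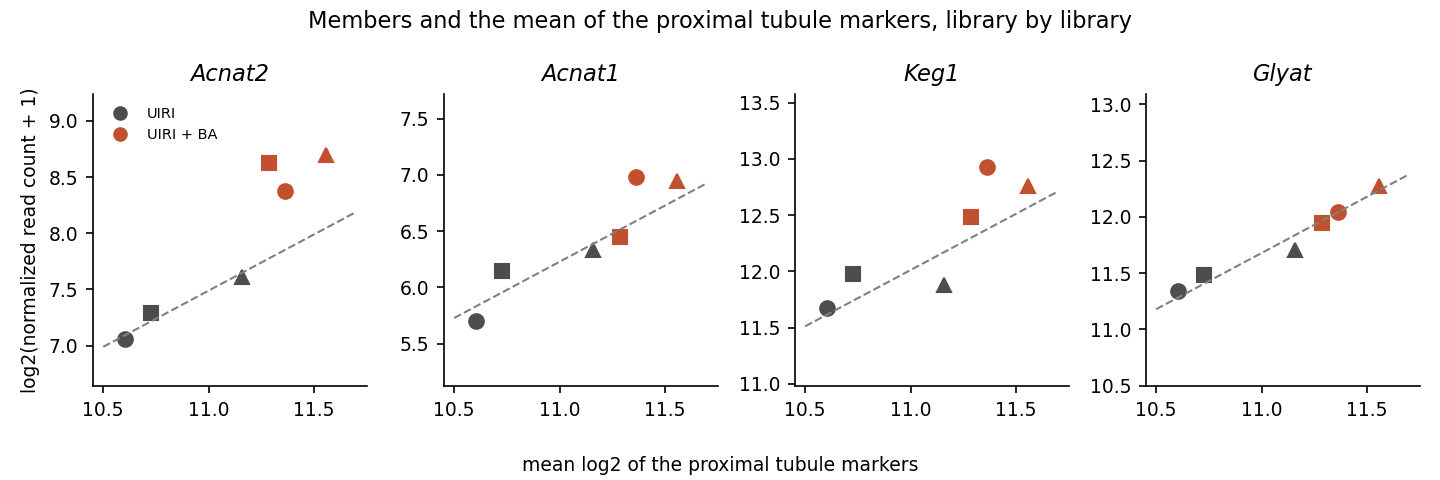
The log2 normalized read count of each member (vertical axis) against the mean log2 level of the 19 proximal tubule markers (horizontal axis) in the 3 UIRI (grey) and 3 UIRI + BA (orange) libraries, with circles, squares and triangles for replicates 1, 2 and 3. The dashed line has a slope of 1 and passes through the UIRI mean; Glyat stays near it in both groups, and all UIRI + BA points of Acnat2 lie above it.

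Other marker lists were read in the same way, with higher and lower counted by the sign of the log2 difference here and in the pathway lists. Of 6 injured tubule markers, 5 were higher with BA and Lcn2 was lower, with 3 higher and 1 lower at an unadjusted p below 0.05. These 4, named after their values were seen, were Havcr1, at 0.42 (standard error 0.10), Krt20, at 0.41 (standard error 0.13), Vcam1, at 0.35 (standard error 0.10), and Lcn2, at -0.51 (standard error 0.09). By RT-qPCR, the paper reports lower mRNA of KIM-1 (Havcr1) and NGAL (Lcn2) with BA in UIRI kidneys. In these libraries Havcr1 went the other way and Lcn2 the same way. The mean log2 level of the 6 was 13.02 ± 0.06 (SD, n = 3) under vehicle and 13.20 ± 0.12 (SD, n = 3) under BA, and the groups all but touched, at 13.07 in both the highest UIRI and the lowest UIRI + BA library. Their summed level overlapped, with 404144, 409453, 393158 under vehicle against 406042, 474105, 442955 under BA, and 90.4% of it came from Spp1. All 6 fibroblast markers were lower with BA, 3 of them at an unadjusted p below 0.05. Their summed level, led by Col3a1, was 80724, 65366, 70807 under vehicle against 46548, 50039.8, 64217 under BA, without overlap, whereas their mean log2 level overlapped. All 8 leukocyte markers, led by Lyz2, had a log2 difference below 0, though Cd3e, at -0.01, had a slightly higher mean with BA, and 1 of the 8 was at an unadjusted p below 0.05, and the median log2 difference was -0.22. The medians were 0.09 for 5 thick limb markers, led by Umod, and 0.21 for 7 collecting duct markers, led by Hsd11b2, with overlapping groups for both. No gene of these lists passed the adjusted threshold in limma's fit, and the part of these cell types in the difference of the members was not tested.

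Around the members, the pathway was followed from the supply of substrates to the removal of products, with 106 genes in 9 lists. Of these, 96 were in the table, and Glyatl3, Acsm4, Slc27a5, Acot5, Acot10, Gadl1, Agxt, Nat8b, Nags and Nr1i3 were not. The log2 difference was above 0 in 83 of the 96 genes and below 0 in 13. An unadjusted p below 0.05 was found for 45 genes, 43 higher and 2 lower with BA, against 5.67% higher and 4.61% lower of all genes. The median log2 difference was 0.27, against -0.01 over all genes. Of the 19 proximal tubule markers, 15 were higher at this threshold, with a median of 0.57. That is a larger share and a higher median than in the pathway. The lists were chosen with earlier results of these data known. An adjusted p below 0.05 was found for 0 of the 96 genes with limma and 0 with edgeR, and for 18 with DESeq2. The 18 include Slc17a1, Slc17a3, Slc22a6, Slc22a12, Slc27a2, Acsm1, Slc6a18, Slc6a20b, Aspa, Pter, Ehhadh, Acaa1b, Nat8f1, Nat8f2 and Hnf4a. With a replicate block, limma gave Slc17a1 and Slc22a12 an adjusted p below 0.05. Without UIRI replicate 3, 57 of the 96 genes had an unadjusted and 24 an adjusted p below 0.05 from limma. Over all 19176 genes these counts were 4838 and 962, against 1971 and 0 with all libraries. Without both libraries numbered 3, the pathway counts were 49 and 19 and those over all genes 4440 and 557. Without UIRI replicate 1, they were 28 and 0 in the pathway and 808 and 0 over all genes.

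The other genes of the enzyme families had few reads. Baat, the bile acid to taurine or glycine transferase, had 41.1 ± 16.7 (SD, n = 3) normalized reads under vehicle against 74.5 ± 18.7 (SD, n = 3) under BA, and the groups overlapped. Its log2 difference was 0.88 (standard error 0.30, adjusted p 0.403 from limma). Without both libraries numbered 3, it was 1.38. Gm4952, a relative of Glyat, had 9.11 ± 3.01 (SD, n = 3) and 14.6 ± 4.02 (SD, n = 3), with a log2 difference of 0.64 (standard error 0.38, adjusted p 0.568 from limma) that was 0.37 without UIRI replicate 1.

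Acyl-CoA synthetases supply the activated acids. Of 12 measured, 11 had a log2 difference above 0 and 1 below 0 (median 0.11), and 4 of those above 0 and the gene below 0 had an unadjusted p below 0.05. Slc27a2, which activates very long fatty acids and bile acids, had 11287 ± 1521 (SD, n = 3) normalized reads under vehicle against 17952 ± 3761 (SD, n = 3) under BA, for a log2 difference of 0.66 (standard error 0.15, adjusted p 0.258 from limma). Acsm5 and Acsm1, mitochondrial synthetases for medium-chain acids, had log2 differences of 0.61 (standard error 0.20) and 0.61 (standard error 0.16), that of Acsm5 being 0.40 without UIRI + BA replicate 3. The lower gene was Acsl6, at -1.17, with as few as 3 reads in a library; it was singled out after its values were seen, as was Nat8l.

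Acyl-CoA thioesterases take the acid off coenzyme A again. Of 11 measured, 9 were higher and 2 lower with BA, and 3 had an unadjusted p below 0.05, all higher. These were Acot3, with a log2 difference of 0.67 (standard error 0.18), Acot4, with 0.61 (standard error 0.17), and Acot12, with 0.59 (standard error 0.19). UIRI + BA replicate 3 was the highest library for Acot12, whose log2 difference was 0.34 without it. Acot3 and Acot4 have close copies beside them, so their reads may be shared out wrongly.

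Genes for taurine and glycine supply were measured for 18 of 20. The list also holds genes of the glycine cleavage system, which breaks glycine down. With BA, 15 stood higher and 3 lower, 10 had an unadjusted p below 0.05, all higher, and the median log2 difference was 0.26. The 10 include Gldc and Amt of the cleavage system, so their count does not stand for supply alone. Slc6a20b, from a family of amino acid transporters with close copies, had 349 ± 129 (SD, n = 3) normalized reads under vehicle against 692 ± 141 (SD, n = 3) under BA, for a log2 difference of 1.02 (standard error 0.24, adjusted p 0.260 from limma). The log2 difference was 0.51 (standard error 0.13) for Slc6a18, a glycine transporter of the proximal tubule, 0.30 (standard error 0.08) for Slc36a1, a lysosomal amino acid transporter, and 0.29 (standard error 0.09) for Amt, a subunit of the glycine cleavage system.

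Enzymes that cut N-acyl amino acids, or are related to those that do, were higher in 6 of 6 cases, 5 of them at an unadjusted p below 0.05. Aspa, which splits N-acetylaspartate, had a log2 difference of 0.70 (standard error 0.15, adjusted p 0.225 from limma). Pter, an enzyme that hydrolyses N-acetyltaurine, had 0.53 (standard error 0.13), and Faah, which hydrolyses fatty acid amides, 0.19 (standard error 0.07). Acy3 had 0.49 (standard error 0.20), but UIRI + BA replicate 3 was far above the rest at 3809.8 normalized reads, and the log2 difference of Acy3 was 0.21 without it.

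Transporters of organic anions and conjugates showed the highest median of the 9 lists, 0.78, with 8 of 9 higher with BA and 6 at an unadjusted p below 0.05. Slc17a1, a phosphate and urate transporter of the apical membrane, had 1206 ± 235 (SD, n = 3) normalized reads under vehicle against 2212 ± 294 (SD, n = 3) under BA, for a log2 difference of 0.88 (standard error 0.14, adjusted p 0.225 from limma). Slc22a6, which takes up hippurate and other organic anions from blood, had a log2 difference of 0.98 (standard error 0.26, adjusted p 0.291 from limma). Slc22a12, a urate transporter, had 0.91 (standard error 0.19), and Slc17a3 had 0.78 (standard error 0.17). Most of these transporters are themselves genes of the proximal tubule, whose markers were higher by 0.57 in the mean.

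Of 20 genes for peroxisomal beta-oxidation and import, 15 were higher and 5 lower with BA, 5 had an unadjusted p below 0.05, all higher, and the median log2 difference was 0.13. Ehhadh, the bifunctional enzyme of the pathway, had 782 ± 23.5 (SD, n = 3) normalized reads under vehicle against 1141 ± 106 (SD, n = 3) under BA, for a log2 difference of 0.54 (standard error 0.09, adjusted p 0.225 from limma). Acox2, an oxidase for branched acids and bile acid precursors, had 0.69 (standard error 0.22), and the thiolase Acaa1b had 0.53 (standard error 0.12).

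Other N-acetyltransferases of amino acids were measured for 9 of 11 genes, 8 of them higher and 1 lower under BA, at a median log2 difference of 0.57, and 4 higher genes and the lower gene had an unadjusted p below 0.05. Nat8f1 had a log2 difference of 0.65 (standard error 0.12), Nat8f2 of 0.58 (standard error 0.11) and Nat8f4 of 0.29 (standard error 0.11). These genes resemble each other closely, which makes the assignment of their reads uncertain. Nat8l, which makes N-acetylaspartate, was the lower gene, at -0.69, with overlapping groups.

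All 9 transcriptional regulators measured were higher with BA, 5 at an unadjusted p below 0.05, with a median log2 difference of 0.32. Hnf4a, a factor that maintains epithelial gene expression in liver and kidney, had 3501 ± 395 (SD, n = 3) normalized reads under vehicle against 5115 ± 305 (SD, n = 3) under BA, for a log2 difference of 0.55 (standard error 0.10, adjusted p 0.225 from limma). Ppara, the receptor that controls peroxisomal genes, had 64.7 ± 27.1 (SD, n = 3) and 111 ± 29.2 (SD, n = 3) with overlapping groups, a log2 difference of 0.81 (standard error 0.29, adjusted p 0.425 from limma). The bile acid receptor Nr1h4 had a log2 difference of 0.32 (standard error 0.08).

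**Figure D3:**
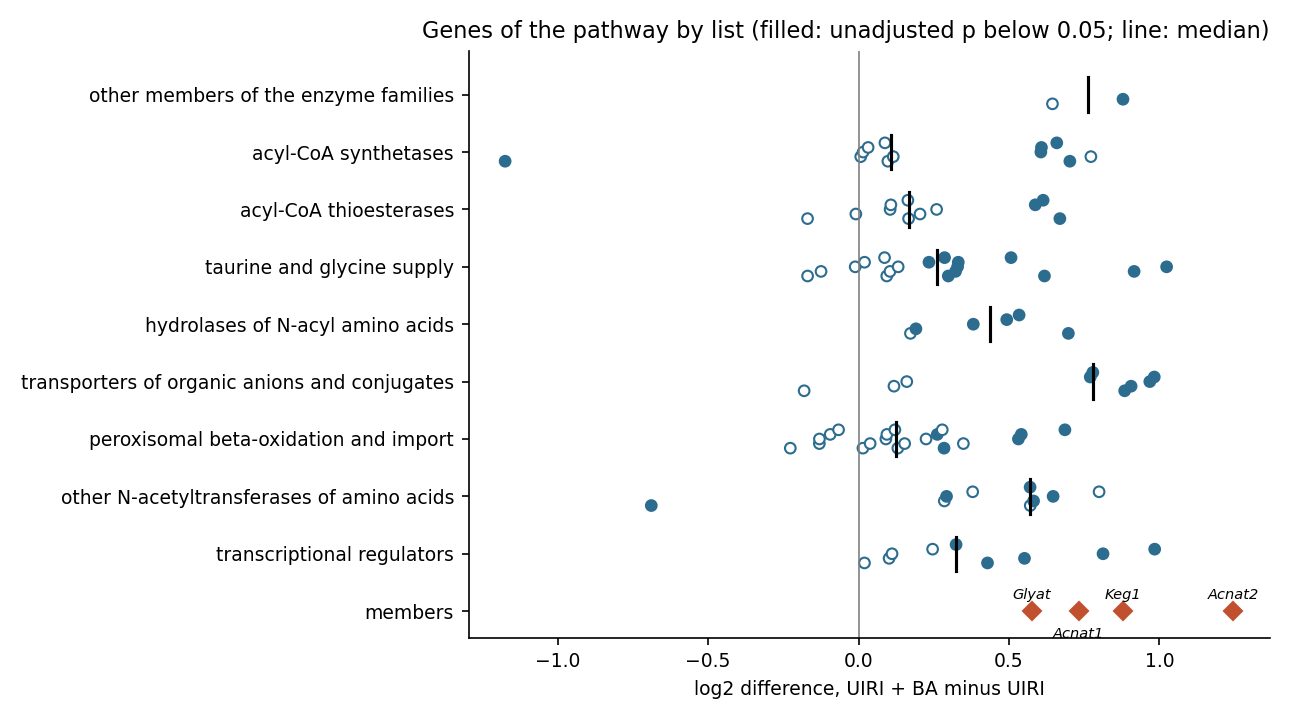
Log2 difference (UIRI + BA minus UIRI) of each measured gene of the 9 pathway lists, with the 4 members at the bottom as diamonds. Filled points have an unadjusted p below 0.05 and black lines mark list medians, of which that of the organic anion transporters is 0.78 and that of the acyl-CoA synthetases 0.11.

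The members stand in clusters on their chromosomes, and their neighbours were chosen by position alone, after the members' values were known. Within 200 kb of the stretch from Acnat2 to Baat, 8 measured genes other than the members had a median log2 difference of 0.13. Next to Baat, Mrpl50, a mitochondrial ribosomal protein, had 0.29 (standard error 0.07) and Zfp189, a zinc finger protein, 0.17 (standard error 0.09). On the far side of Acnat2, Plppr1 had -0.30 (standard error 0.24).

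Within 200 kb of the stretch from Gm4952 to Keg1, 10 measured genes other than the members had a median log2 difference of -0.12. Olfr1442, an olfactory receptor gene between Glyat and Keg1, had 11.9 normalized reads in UIRI and 6.27 in UIRI + BA, a log2 difference of -0.84 (standard error 0.34, adjusted p 0.465 from limma). Zfp91 and Lpxn, beyond Keg1, had 0.02 (standard error 0.10) and -0.18 (standard error 0.15), and Fam111a, before Gm4952, had -0.10 (standard error 0.10). No adjusted p below 0.05 from limma was found for the 18 neighbours, nor for any gene measured, where the smallest was 0.225. This threshold therefore does not show that the neighbours were unchanged. The groups did not overlap for 3 of the 8 neighbours on chromosome 4 and 2 of the 10 on chromosome 19. Over all genes, 7.45% were apart with UIRI + BA higher and 6.96% with UIRI + BA lower.

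**Figure D4:**
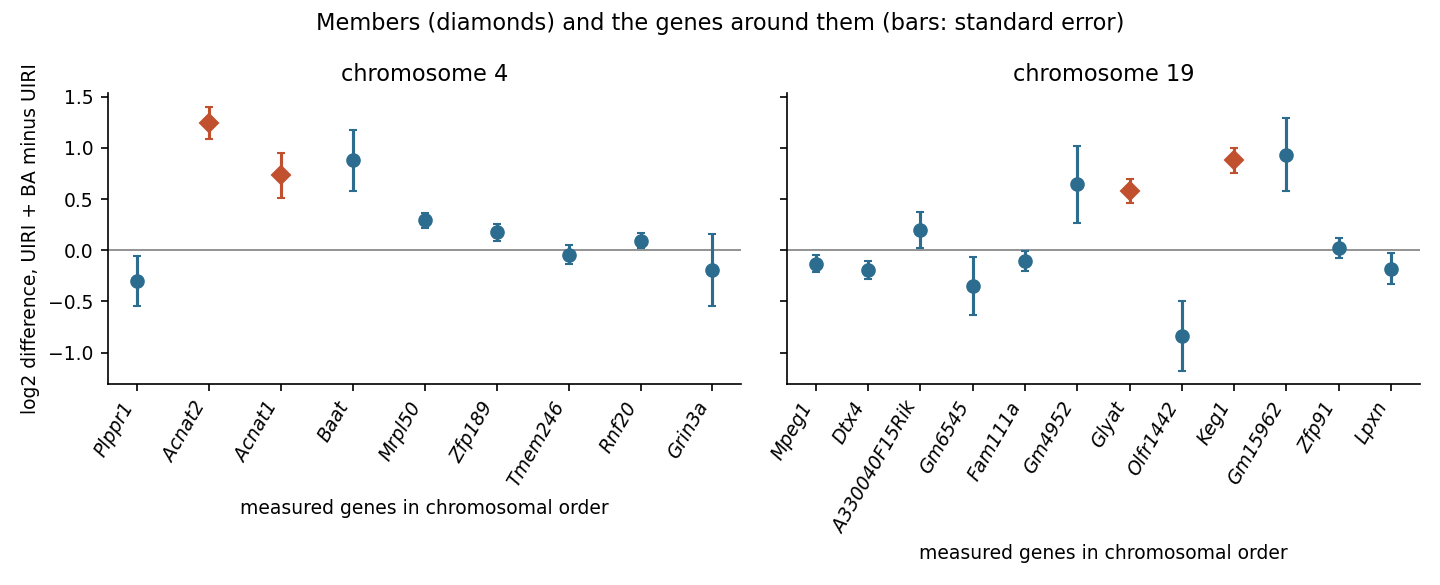
Log2 difference (UIRI + BA minus UIRI) with its standard error for the measured genes within 200 kb of the members on chromosomes 4 and 19, evenly spaced in chromosomal order, with 1 gene on chromosome 4 left out. Members are orange diamonds; Acnat2 is highest at 1.25, and Olfr1442, between Glyat and Keg1, is lowest at -0.84.

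Over the 6 libraries, the log2 levels of pairs of members had a Pearson r from 0.86 (Acnat1 with Acnat2) to 0.96 (Acnat2 with Glyat). All 4 differ between the groups by selection, and this difference is part of each r, so these values describe the libraries and were not tested. Among 13935 other genes with a mean of at least 50 normalized reads, the 5 with the highest r were named for each member. For Glyat they were Haao, Aldh8a1, Sult1d1, Sel1l3 and Cyp2j5, with r from 0.996 to 0.998. Haao and Aldh8a1 are enzymes of tryptophan breakdown, Sult1d1 is a sulfotransferase and Cyp2j5 a cytochrome P450 of the kidney.

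For Keg1 they were Rufy3, Ccdc167, Slc36a1, St8sia6 and Zfp62 (r from 0.988 to 0.998), of which the transporter Slc36a1 also belongs to the list of taurine and glycine supply. For Acnat2 they were Eps8, Actn4, Cxxc5, Rims2 and Nat8f1 (r from 0.991 to 0.997), of which Nat8f1 also belongs to the other N-acetyltransferases. For Acnat1 they were Sufu, Slc35b4, E230013L22Rik, Enox2 and Itgb8 (r from 0.989 to 0.994). None of these genes was shared by any pair of members. An r above 0.9 was found with 546 of the 13935 genes for Glyat, 517 for Acnat1, 399 for Acnat2 and 302 for Keg1, and the median r of the 19 proximal tubule markers was 0.88, 0.87, 0.86 and 0.79 in the same order.

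**Figure D5:**
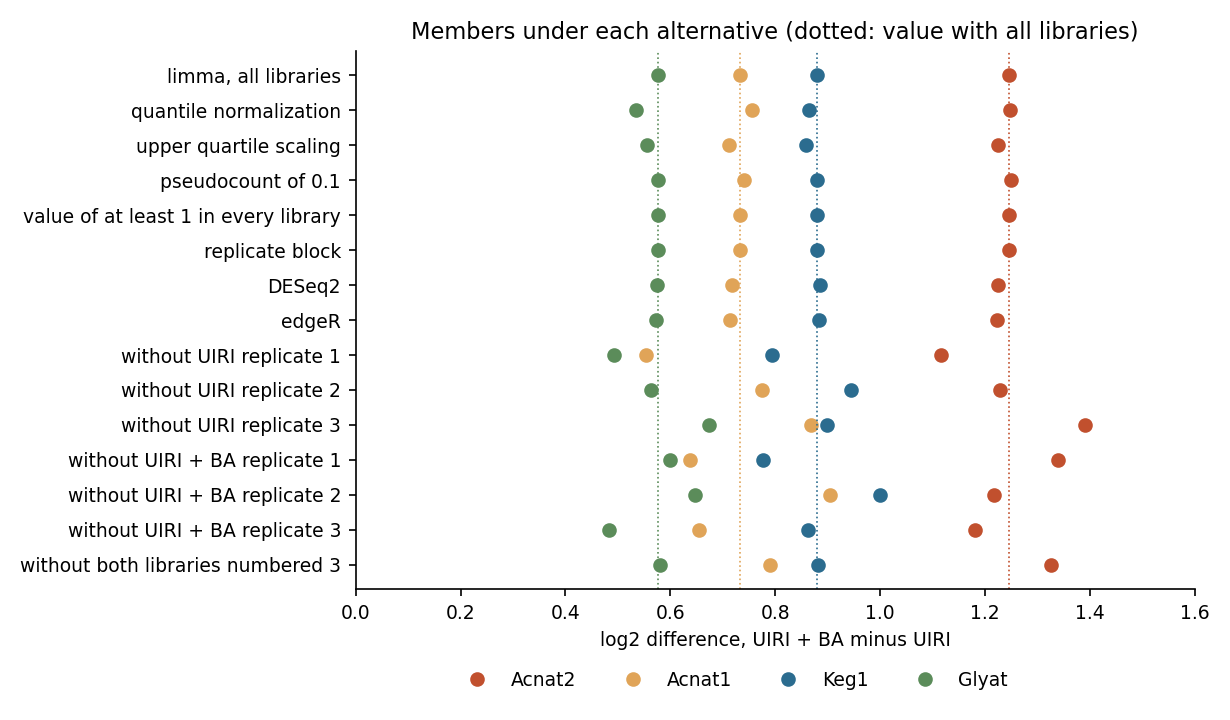
Log2 difference (UIRI + BA minus UIRI) of Acnat2, Acnat1, Keg1 and Glyat with limma on all libraries and under each alternative, with dotted lines at the value from all libraries. Acnat2 runs from 1.12 to 1.39, Keg1 from 0.78 to 1.00, Acnat1 from 0.55 to 0.90 and Glyat from 0.48 to 0.67.

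The plot of alternatives shows that the largest shifts came from leaving out a library. Acnat2 was lowest without UIRI replicate 1 and highest without UIRI replicate 3. Acnat1 was lowest without UIRI replicate 1, and Glyat without UIRI + BA replicate 3. Acnat2 stayed above the other members in each of the 14 alternatives, and Glyat was the lowest in each. The order of Acnat1 and Keg1, with Keg1 above, was also kept in each of them.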

How the data were processed

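Renal cortex RNA was sequenced in 6 libraries, 3 of UIRI and 3 of UIRI + BA. HISAT2 alignments and FeatureCounts gene counts were made by the authors, who deposited a normalized signal per gene, a count divided by a size factor. Of these values 100% lay within 0.01 of a whole read. The deposited table also holds the authors' log2 fold changes and p-values, and other deposited tables hold enrichments; none was used. Members and lists were chosen with earlier results of these data known. limma 3.58.1 (R 4.3.3, intensity trend) tested log2 of the value plus 1 over all 19176 rows with Benjamini-Hochberg adjustment. DESeq2 1.42.0 and edgeR 4.0.16 (quasi-likelihood test, 17155 genes) used the recovered reads. Fold differences are on the log2(value + 1) scale, which understates low genes. All 3 tools were tested on simulated data. Of genes changed 1.5-fold, limma recovered 11.9%, DESeq2 16.4% and edgeR 14.9%. Of genes changed 2-fold, they recovered 82.1%, 85.1% and 82.1%. The simulation gave all genes the same dispersion and had no deviating library, so these shares need not hold for the real data.

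Named genes were the members, Baat, Glyatl3, Gm4952, Ppara and Hnf4a. From each pathway list, up to 4 genes were added with an unadjusted p below 0.05, no overlap, a mean of at least 20 and the largest log2 difference. The 5 genes of highest r per member (mean of at least 50) and the most abundant marker per list were added too. Not every gene these rules give is printed, and other genes were named after their values were seen. Positions and exon lengths came from GENCODE M21, joined by symbol (97.98% of rows had a length), and coding sequences were aligned with Biopython 1.88. As alternatives, values were quantile normalized or scaled to the upper quartile, the pseudocount was set to 0.1, genes below 1 in any library were dropped, and the fit was repeated with a replicate block, with DESeq2, edgeR and with each library left out.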

Additional observations from a re-analysis of the deposited data

How the results depend on the processing

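The log2 differences of the members kept their direction in the 14 alternatives and moved by less than the spread between replicates. Leaving out each library in turn gave 0.55 to 0.90 for Acnat1, 1.12 to 1.39 for Acnat2, 0.78 to 1.00 for Keg1 and 0.48 to 0.67 for Glyat. The number of genes at an adjusted p below 0.05 was 0 with limma, and also 0 under both scalings, the pseudocount of 0.1, the filter and edgeR. It was 213 with DESeq2, which gave 3350 genes no adjusted p. With each library left out it ran from 0 to 962, the latter without UIRI replicate 3, and without both libraries numbered 3, a setting chosen after seeing the data, it was 557. At an unadjusted p below 0.05, the 1971 genes became 808 without UIRI replicate 1, 1270 without UIRI + BA replicate 1, 4838 without UIRI replicate 3 and 4440 without both libraries numbered 3. The 45 pathway genes became 28 without UIRI replicate 1 and 57 without UIRI replicate 3. The cause was not tested. Relative to the proximal tubule markers, Glyat ran from -0.08 to 0.04, on both sides of 0. The 31 pathway genes followed through the alternatives kept their direction in each; Acsl6 and Nat8l were not followed.

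Libraries with the same number did not all deviate together (correlations of -0.24, 0.30 and 0.15). Deviations were taken from the group means, so these correlations depend on each other. They cannot settle whether the numbers pair the libraries. With a replicate block, limma called 6 genes at an adjusted p below 0.05, and 48 pathway genes had an unadjusted p below 0.05. UIRI + BA replicate 3 correlated best with UIRI replicate 3, and UIRI + BA replicate 2 with UIRI replicate 2, but UIRI + BA replicate 1 did so with UIRI replicate 3. With 3 mice per group, the spread between mice limits the precision of Keg1 and Glyat more than depth does. For Acnat1 and other genes with few reads, counting error is also a limit.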
